A study of Mus musculus with 19 samples.

Results

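The 38 mouse genes described here belong to the interferon response and to the machinery that loads peptides onto MHC class I molecules. They were given as a list of symbols and matched to the Entrez gene IDs of the count tables, where all 38 were found among 36528 gene IDs. Their read counts were compared across 19 libraries of polyadenylated RNA from mice of a study of Etv5, an ETS family transcription factor, in alveolar type II (AT2) cells and in whole lung. AT2 cells line the alveolus and secrete surfactant. By role, 5 of the members are signalling and transcription factors, 3 belong to RNA sensing, 2 to the ISG15 system, 12 are antiviral effectors, 3 are ADP-ribosylation and ubiquitin partners, 4 are guanylate-binding GTPases, 3 are immunoproteasome subunits, 3 transport and load peptides, and 3 are class I molecules.

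There were 5 Etv5KO and 4 control libraries of AT2 cells, and 5 Etv5KO and 5 control libraries of lung. The Etv5KO mice were SpcCreERT2;RosatdTomato;Etv5ko/loxp, that is, with 1 knockout and 1 loxP-flanked Etv5 allele, and the controls were SpcCreERT2;RosatdTomato, so the Cre and the reporter were shared by all groups. The Cre recombinase is driven by the surfactant protein C promoter and becomes active with tamoxifen, so in Etv5KO lung the cells without Cre kept their loxP-flanked allele. Mice of both genotypes received tamoxifen (100 mg per kg body weight) over 5 days and were left for another 5 days. The sorted AT2 cells were positive for EpCAM and tdTomato and negative for CD45, the pan-leukocyte antigen, and CD31, the endothelial antigen. The sources used here name neither strain background nor age. The extract protocol speaks of 5 mice per genotype, and 1 control AT2 library of that set was not analysed here. Libraries were numbered within each group in accession order, and the numbers pair nothing.

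Interferons bind receptors that act through JAK kinases and STAT factors. Type I interferons raise genes through a complex that holds STAT2 and IRF9 and binds the interferon-stimulated response element (ISRE), whereas interferon gamma acts mainly through the gamma-activated site (GAS). The induced proteins block viral replication, attack intracellular pathogens, or exchange the catalytic subunits of the proteasome and raise the supply of peptides to class I molecules. Nlrc5 is the transactivator of class I genes. In the alveolus, AT2 cells are a main target of respiratory viruses, and their interferon response is part of the first defence.

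Total counts per library ran from 17426415 to 26722625 in Etv5KO AT2 cells and from 20279607 to 28671262 in control AT2 cells. They ran from 20332410 to 22478603 in Etv5KO lung and from 14971793 to 26989453 in control lung. Etv5 itself was not lower in the Etv5KO libraries. It averaged 714 ± 58.4 CPM (edgeR's read counts scaled to library size, with TMM factors) in Etv5KO AT2 cells (SD, n = 5) and 667 ± 36.1 CPM in control AT2 cells (SD, n = 4), and 113 ± 10.8 CPM in Etv5KO lung against 104 ± 7.20 CPM in control lung (SD, n = 5 each). The counts cover whole gene models, without showing which exons were read, so its level is no check of the genotypes. Etv5KO and control below always mean the libraries labelled so, and every direction given rests on those labels. The sum over 10 AT2 markers, led by Sftpc, was 642% of its control lung level in Etv5KO AT2 cells and 792% in control AT2 cells. The p-values measure the spread between libraries. Of the AT2 controls, library 2 stood apart for these genes: it was the highest of the 4 for 31 of the 38 members, against 32.4% of all 14939 genes tested. Library 2 also differed beyond the members. Sftpc made up 4.98% of its counts, against 6.74% to 7.71% in the other AT2 controls. Its TMM factor was 0.931, against 0.806 to 0.836 in the others. Results for AT2 cells are therefore also given without library 2 where it matters.

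The promoters of the 4 guanylate-binding protein genes are shown because 3 of them passed the test between genotypes in AT2 cells, while Gbp3 did not. That of Ifit1, a classical target of type I interferon, is shown beside them. Ifit1 did not pass either, on few reads and with a wide interval, so it is no contrast to the Gbp genes. The sequences are RefSeq windows on GRCm38.p6, from 250 bases before to 50 bases after the annotated start, written 5′ to 3′ on the + strand. Capitals mark the ISRE core GAAANNGAAA and the GAS core TTCNNNGAA, searched on both strands. Matches of the ISRE core that overlap are run together. The windows are chr3:142620413-142620712 for Gbp2, chr3:142559794-142560093 for Gbp3 (the upstream of its 2 windows), chr3:142496684-142496983 for Gbp5, chr3:142530086-142530385 for Gbp7 and chr19:34640639-34640938 for Ifit1.
Gbp2: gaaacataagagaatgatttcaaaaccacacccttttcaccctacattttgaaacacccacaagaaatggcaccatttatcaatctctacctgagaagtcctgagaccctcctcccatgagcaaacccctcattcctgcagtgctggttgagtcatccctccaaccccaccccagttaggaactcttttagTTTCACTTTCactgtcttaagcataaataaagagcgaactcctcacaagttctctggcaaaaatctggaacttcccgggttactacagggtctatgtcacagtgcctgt
Gbp3: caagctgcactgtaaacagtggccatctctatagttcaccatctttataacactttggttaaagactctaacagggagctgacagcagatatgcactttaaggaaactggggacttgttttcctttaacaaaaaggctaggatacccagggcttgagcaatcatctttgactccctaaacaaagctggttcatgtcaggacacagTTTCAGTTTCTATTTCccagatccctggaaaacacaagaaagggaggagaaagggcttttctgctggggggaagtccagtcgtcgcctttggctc
Gbp5: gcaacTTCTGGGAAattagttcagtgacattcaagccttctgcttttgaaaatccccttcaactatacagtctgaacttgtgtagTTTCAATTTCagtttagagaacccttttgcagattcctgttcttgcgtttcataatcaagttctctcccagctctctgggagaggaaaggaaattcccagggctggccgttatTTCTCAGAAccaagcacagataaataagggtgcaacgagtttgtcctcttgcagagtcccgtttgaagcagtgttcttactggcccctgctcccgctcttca
Gbp7: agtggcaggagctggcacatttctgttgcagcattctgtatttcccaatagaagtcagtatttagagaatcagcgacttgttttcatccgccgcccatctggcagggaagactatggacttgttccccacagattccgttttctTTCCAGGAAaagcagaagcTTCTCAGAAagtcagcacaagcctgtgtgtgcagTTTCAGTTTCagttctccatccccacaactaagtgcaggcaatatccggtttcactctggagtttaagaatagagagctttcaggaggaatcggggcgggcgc
Ifit1: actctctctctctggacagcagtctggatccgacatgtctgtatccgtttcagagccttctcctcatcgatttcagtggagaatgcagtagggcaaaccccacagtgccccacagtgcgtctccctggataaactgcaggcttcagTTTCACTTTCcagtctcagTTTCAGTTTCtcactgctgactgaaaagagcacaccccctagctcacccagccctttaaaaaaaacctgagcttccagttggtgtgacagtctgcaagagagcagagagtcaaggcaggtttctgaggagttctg
Counted from the annotated start as 0, the ISRE core begins at -59 in Gbp2, at -45 and -39 in Gbp3, at -165 in Gbp5, at -53 in Gbp7 and at -104 and -85 in Ifit1. The Gbp5 and Gbp7 windows also hold 2 GAS cores each. Of the 38 members, 30 had at least 1 window, 35 in all, and the ISRE core was present in 12 of the 35 windows (34.3%), 1 each of 12 members, against 3.44% of all 32851 windows. The members were listed as interferon-stimulated genes, so an excess of the element is part of how they were defined. The 12 were B2m, Bst2, Gbp2, Gbp3, Gbp5, Gbp7, Ifih1, Ifit1, Ifit3, Isg15, Rsad2 and Stat2. The GAS core was present in 7 of the 35 windows, or 1 each of 7 members, against 8.30% of windows. A core of the sites that ETS factors bind, CCGGAAGT, was present in 2 of the 35 (5.71%), those of Ifih1 and Ifit2, against 3.89% of windows, and in no shown Gbp window. A match is only a run of letters and does not show that a factor binds there.

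In AT2 cells, 3 members were higher in Etv5KO than in control cells and none was lower. All 3 were guanylate-binding protein genes: Gbp5 was 2.50-fold, Gbp2 1.87-fold and Gbp7 1.76-fold higher. The genes at the head of the response, such as Irf1, Irf7 and Stat2, the classical antiviral effectors and the class I genes did not pass the test. The test was edgeR's quasi-likelihood test with Benjamini-Hochberg adjustment over all genes at a threshold of 0.05, as throughout. It covered 36 of the 38 members, since Mx1 and Mx2 had too few reads in AT2 cells. Of all 14939 genes tested, 5.03% were higher and 4.84% lower in Etv5KO cells, or 9.87% in either direction, so a count of 3 of 36 does not by itself set the list apart. DESeq2 also placed 3 members higher and 0 lower. At an unadjusted p under 0.05 there were 5, the other two being Gbp3 and Usp18. The median log2 fold change over the 36 was 0.10, against -0.01 over all genes, with 23 positive and 13 negative values. Of the 33 that did not pass, 30 had a 95% interval within 1 log2 unit of no change and 16 within 0.5.

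**Figure D1:**
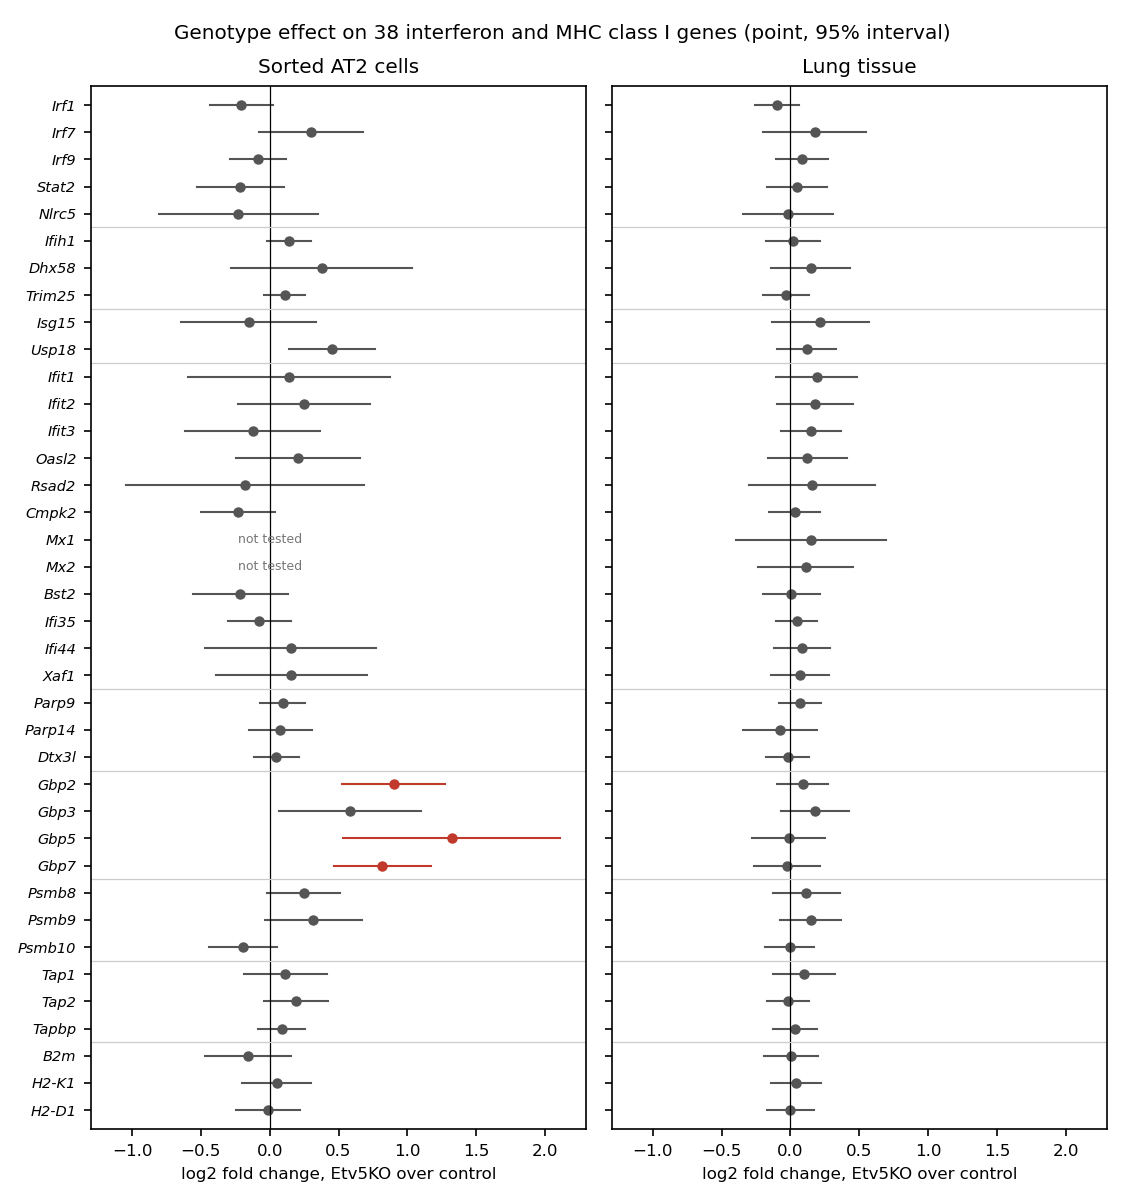
Log2 fold change of each member, Etv5KO over control, with its 95% interval, in sorted AT2 cells (left) and in lung tissue (right), grouped by role from the transcription factors at the top to the class I molecules at the bottom. Red points passed the test, which in AT2 cells are Gbp2 (0.90), Gbp5 (1.32) and Gbp7 (0.82), and no lung point is red.

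The guanylate-binding proteins are large GTPases that coat and break open vacuoles of intracellular bacteria and parasites and promote inflammasome activity. Gbp2 had 11.3, 9.92, 8.63, 9.45 and 9.85 CPM in the 5 Etv5KO AT2 libraries, against 4.99, 7.11, 5.24 and 3.68 CPM in the 4 control AT2 libraries. Every Etv5KO library lay above every control library, the nearest control being library 2. The means were 9.83 ± 0.967 CPM in Etv5KO (SD, n = 5) and 5.25 ± 1.41 CPM in control cells (SD, n = 4), a log2 fold change of 0.90 (SE 0.17, edgeR adjusted p = 0.00559). Gbp7 had 9.06, 9.13, 8.12, 9.50 and 9.34 CPM in Etv5KO AT2 libraries, against 4.45, 7.15, 4.72 and 4.15 CPM in control AT2 libraries. The 5 Etv5KO values lay close together, and all were above the highest control. The log2 fold change of Gbp7 was 0.82 (SE 0.16, edgeR adjusted p = 0.00731).

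Gbp5, which in macrophages promotes assembly of the NLRP3 inflammasome, had 1.58, 1.85, 1.10, 1.21 and 1.75 CPM in Etv5KO AT2 libraries, against 0.488, 1.17, 0.346 and 0.356 CPM in control AT2 libraries. Here control 2 reached into the range of the Etv5KO libraries, while the other three controls lay below every Etv5KO library. The log2 fold change was 1.32 (SE 0.36, edgeR adjusted p = 0.0388), on 21 to 35 reads per Etv5KO library and 6 to 24 reads per control library. Gbp3 had 2.89, 2.53, 2.83, 2.65 and 4.33 CPM in Etv5KO AT2 libraries, against 1.68, 2.97, 1.78 and 1.72 CPM in control AT2 libraries. Its log2 fold change of 0.58 (SE 0.24) did not pass (edgeR adjusted p = 0.165). The groups overlapped through control 2, and Etv5KO 5 was well above its group. The no-overlap criterion was met upward by Gbp2, Gbp7 and Usp18, which among all genes tested held for 5.9%.

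**Figure D2:**
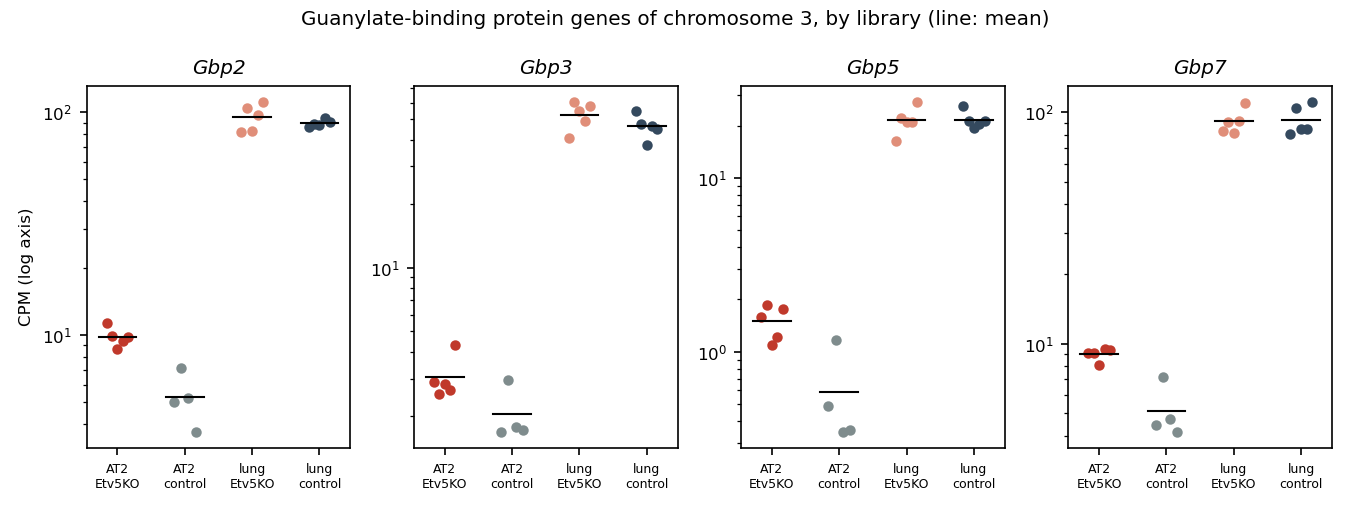
CPM of Gbp2, Gbp3, Gbp5 and Gbp7 in each library on log axes, with the mean of each group as a line. For Gbp2 and Gbp7 all Etv5KO AT2 libraries lie above all control AT2 libraries, for Gbp3 and Gbp5 1 control reaches the Etv5KO range, and in lung the genotypes overlap for all 4 genes.

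Leaving out 1 AT2 library at a time kept Gbp2 and Gbp7 past the threshold in 9 of 9 fits, with edgeR adjusted p up to 0.0208 for Gbp2 and 0.0283 for Gbp7. Gbp5 stayed past it in 3 of 9 and was lost without Etv5KO 1, 2 or 5 or without control 1, 3 or 4, with edgeR adjusted p up to 0.118. Without control 2 the log2 fold changes grew to 1.08 for Gbp2, 1.03 for Gbp7 and 1.91 for Gbp5, and Gbp3 passed at 0.83 (edgeR adjusted p = 0.0347). The 4 genes are neighbours on chromosome 3 in the RefSeq annotation, in the order Gbp5, Gbp7, Gbp3, Gbp2b, Gbp2, with uncharacterised loci left out. Pdlim5, the cytoskeletal adaptor gene that flanks the cluster beyond Gbp5, averaged 36.5 CPM in Etv5KO and 34.2 CPM in control AT2 cells, a log2 fold change of 0.10 that did not pass (edgeR adjusted p = 0.580). Gbp2b had almost no reads in AT2 cells, with 0.0216 CPM in Etv5KO and 0 CPM in control cells. The authors counted uniquely aligned reads, per the file headers, so reads shared between similar Gbp genes were left out of these counts.

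The level of the Gbp genes in AT2 cells was low beside that in lung. As a share of the control lung mean, Gbp2 reached 11.0% in Etv5KO and 5.88% in control AT2 cells. For Gbp7 the shares were 9.73% in Etv5KO and 5.52% in control AT2 cells, for Gbp5 6.94% in Etv5KO and 2.73% in control cells, and for Gbp3 6.59% in Etv5KO and 4.40% in control cells. The 10 endothelial markers together stood at 2.48% of control lung in Etv5KO and 2.08% in control AT2 cells, with summed levels of 116 to 199 CPM in Etv5KO and 112 to 168 CPM in control libraries. All 10 had a positive fold change and 0 passed in edgeR or DESeq2, with 1 at an unadjusted p under 0.05. Ptprc, the gene of CD45, stood at 3.31% of control lung in Etv5KO and 3.47% in control AT2 cells. The 8 pan-leukocyte markers summed to 141 to 172 CPM in Etv5KO and 148 to 166 CPM in control libraries. Cytip alone averaged 87.2 CPM in Etv5KO and 88.4 CPM in control AT2 cells, so the sum mainly follows Cytip. In that list the log2 difference of control AT2 cells from control lung had a median of -4.77 and a highest value of -0.20.

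The lymphocyte markers, led by Cd79b, summed to 42.5 to 59.8 CPM in Etv5KO and 26.4 to 46.2 CPM in control AT2 libraries. Cd79b alone averaged 45.1 CPM in Etv5KO and 32.6 CPM in control AT2 cells, against 45.9 CPM in control lung. Of the 6 lymphocyte markers tested, 0 passed in edgeR, with 3 at an unadjusted p under 0.05 and 2 called higher by DESeq2. Macrophage and dendritic markers other than Lyz2, which AT2 cells express strongly, summed to 46.3 to 53.1 CPM in Etv5KO and 34.5 to 59.0 CPM in control AT2 libraries. Of the 7 tested markers of that list, Lyz2 included, 1 was higher in edgeR, Cd68 (log2 0.65, edgeR adjusted p = 0.00767), and the values went down to -0.83 for Marco, with 5 at an unadjusted p under 0.05, while DESeq2 called 1 higher and 2 lower. The mesenchymal sum was 54.0 to 100.0 CPM in Etv5KO and 44.8 to 72.8 CPM in control libraries. All 8 mesenchymal markers had a positive log2 fold change (median 0.51) and 0 passed in edgeR or DESeq2, with 3 at an unadjusted p under 0.05. The airway sum was 775 to 1134 CPM in Etv5KO and 406 to 821 CPM in control libraries, where 2 of 5 tested airway markers were higher. Neutrophil markers summed to 4.10 to 22.1 CPM in Etv5KO and 8.90 to 17.6 CPM in control libraries. Markers of alveolar type I cells summed to 5227 to 5651 CPM in Etv5KO and 3752 to 4540 CPM in control AT2 libraries. These ranges did not overlap. Of the 10 markers of that list, 5 were higher and 1 lower in Etv5KO AT2 cells in edgeR. There were 9 at an unadjusted p under 0.05, and DESeq2 called 7 higher and 1 lower. Of the 10 AT2 markers 3 were lower in edgeR and 5 in DESeq2. Of all genes tested, 5.03% were higher and 4.84% lower in edgeR. No marker of any of these lists was at 0 in either AT2 group. In bulk libraries more cells of a type and more RNA per cell cannot be told apart, and the part of these cell types in the Gbp result was not tested.

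Among the signalling and transcription factors, 0 of 5 passed in AT2 cells in edgeR, 0 had an unadjusted p under 0.05, and DESeq2 called 0. Irf1, a factor induced mainly by interferon gamma, was the most abundant at 82.4, 83.1, 85.9, 79.4 and 82.1 CPM in Etv5KO libraries, against 74.2, 97.1, 95.3 and 116 CPM in control libraries. The Etv5KO values were tightly grouped inside the wide control range, and the log2 fold change was -0.21 (SE 0.10, edgeR adjusted p = 0.275). Without control 1, the lowest control, Irf1 passed as lower in Etv5KO with a log2 fold change of -0.31 (edgeR adjusted p = 0.0439). Irf7, the factor that amplifies type I interferon production, averaged 9.95 ± 1.79 CPM in Etv5KO and 8.10 ± 1.78 CPM in control AT2 cells. Irf9 averaged 35.7 ± 2.71 CPM in Etv5KO and 37.997 ± 4.63 CPM in control cells, and its partner Stat2 averaged 32.3 ± 5.15 CPM in Etv5KO and 37.6 ± 7.37 CPM in control cells. Nlrc5 averaged 4.38 ± 1.31 CPM in Etv5KO and 5.13 ± 1.72 CPM in control cells (SD, n = 5 Etv5KO and 4 control, also for the means that follow in AT2 cells). The 5 log2 fold changes ran from -0.23 for Nlrc5 to 0.30 for Irf7.

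Of the RNA sensors and their partners, 0 of 3 passed in edgeR or DESeq2, with 0 at an unadjusted p under 0.05. Trim25, a ubiquitin ligase of the RIG-I pathway, had 106, 107, 96.8, 98.7 and 97.2 CPM in Etv5KO AT2 libraries, against 89.7, 104, 95.3 and 87.6 CPM in control AT2 libraries. The groups overlapped. The log2 fold change of Trim25 was 0.11 (SE 0.07). Ifih1, which encodes the double-stranded RNA sensor MDA5, averaged 41.2 ± 1.68 CPM in Etv5KO and 37.6 ± 3.28 CPM in control cells. Dhx58, which encodes the related helicase LGP2, averaged 4.52 ± 1.05 CPM in Etv5KO and 3.46 ± 1.77 CPM in control cells, with a wide interval of its log2 fold change from -0.28 to 1.04.

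In the ISG15 system, the ubiquitin-like modifier Isg15 averaged 2.60 ± 0.678 CPM in Etv5KO and 2.89 ± 0.627 CPM in control AT2 cells. Usp18 removes ISG15 from proteins and restrains type I interferon receptor signalling. It had 4.73, 4.28, 5.201, 4.32 and 4.33 CPM in Etv5KO libraries, against 3.04, 4.04, 2.90 and 3.44 CPM in control libraries. All 5 Etv5KO libraries lay above all controls, though narrowly, and the log2 fold change of Usp18 was 0.45 (SE 0.14, edgeR adjusted p = 0.0756). It passed when control 2 was left out (edgeR adjusted p = 0.0309) and when all 19 libraries shared 1 fit (0.0286). The log2 fold change of Isg15 was -0.15 (edgeR adjusted p = 0.762), and it ran from -0.29 to 0.009 with 1 library left out.

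Of the 12 antiviral effectors, 10 could be tested in AT2 cells and 0 passed, with 0 at an unadjusted p under 0.05 and 0 called by DESeq2. Several of them were near the lower limit of counting there. Ifit1, Ifit2, Ifit3, Rsad2 and Ifi44 averaged between 0.671 CPM (Ifit1 in control cells) and 1.24 CPM (Ifit3 in control cells), with 7 to 29 reads per library. The Ifit proteins bind viral RNA, and Rsad2 encodes viperin, an enzyme that makes a chain-terminating nucleotide. Their log2 fold changes ran from -0.18 for Rsad2 to 0.25 for Ifit2, with intervals reaching from -1.05 to 0.69 for Rsad2 and from -0.59 to 0.88 for Ifit1. The intervals show which changes these counts do not exclude, and no limit of detection was computed. Bst2, or tetherin, which holds budding virions at the cell surface, was the most abundant at 25.9, 15.5, 16.9, 24.3 and 25.5 CPM in Etv5KO libraries, against 25.0, 26.1, 26.5 and 23.02 CPM in control libraries. Etv5KO 2 and 3 were low and the other three Etv5KO libraries were within the control range, and the log2 fold change of Bst2 was -0.22 (SE 0.16).

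The remaining effectors that were tested did not pass either. Oasl2, of the oligoadenylate synthetase family, averaged 7.76 ± 1.55 CPM in Etv5KO and 6.73 ± 1.98 CPM in control AT2 cells. Cmpk2, a mitochondrial nucleotide kinase encoded next to Rsad2, averaged 7.69 ± 1.06 CPM in Etv5KO and 9.05 ± 0.449 CPM in control cells. Ifi35, whose product pairs with NMI, averaged 18.8 ± 2.10 CPM in Etv5KO and 19.9 ± 1.86 CPM in control cells. Xaf1, a pro-apoptotic interferon-stimulated gene, averaged 5.10 ± 1.70 CPM in Etv5KO and 4.55 ± 1.14 CPM in control cells. Mx1 and Mx2 encode dynamin-like GTPases that trap viral components, and both were left out by the filter on low counts. Mx1 had 2 to 8 reads per Etv5KO library and 1 to 11 reads per control library.

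Mx2 had 2 to 7 reads per Etv5KO AT2 library and 8 to 21 reads per control AT2 library, or 0.197, 0.264, 0.127, 0.115 and 0.361 CPM in Etv5KO, against 0.434, 1.02, 0.433 and 0.593 CPM in control libraries. It was the only member, of the 38, whose Etv5KO libraries all lay below all controls, which among the genes tested held for 6.49%. With no filter on low counts Mx2 had a log2 fold change of -1.52 (SE 0.43, edgeR adjusted p = 0.0477). In the fit of all 19 libraries it was -1.53 (SE 0.36, edgeR adjusted p = 0.00712), and there Mx2 passed the filter through its lung counts.

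The ADP-ribosyltransferases Parp9 and Parp14 and the ubiquitin ligase Dtx3l, the partner of Parp9, had small differences, with log2 fold changes of 0.05 to 0.09 and 0 of 3 past the threshold in edgeR or DESeq2, and 0 at an unadjusted p under 0.05. Parp14 had 52.6, 51.0, 47.0, 45.0 and 50.3 CPM in Etv5KO AT2 libraries, against 39.9, 58.3, 43.7 and 45.3 CPM in control AT2 libraries. The control range enclosed all Etv5KO values. Parp9 averaged 42.5 ± 2.59 CPM in Etv5KO and 39.9 ± 3.33 CPM in control cells, and Dtx3l averaged 31.5 ± 0.849 CPM in Etv5KO and 30.6 ± 2.77 CPM in control cells.

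**Figure D3:**
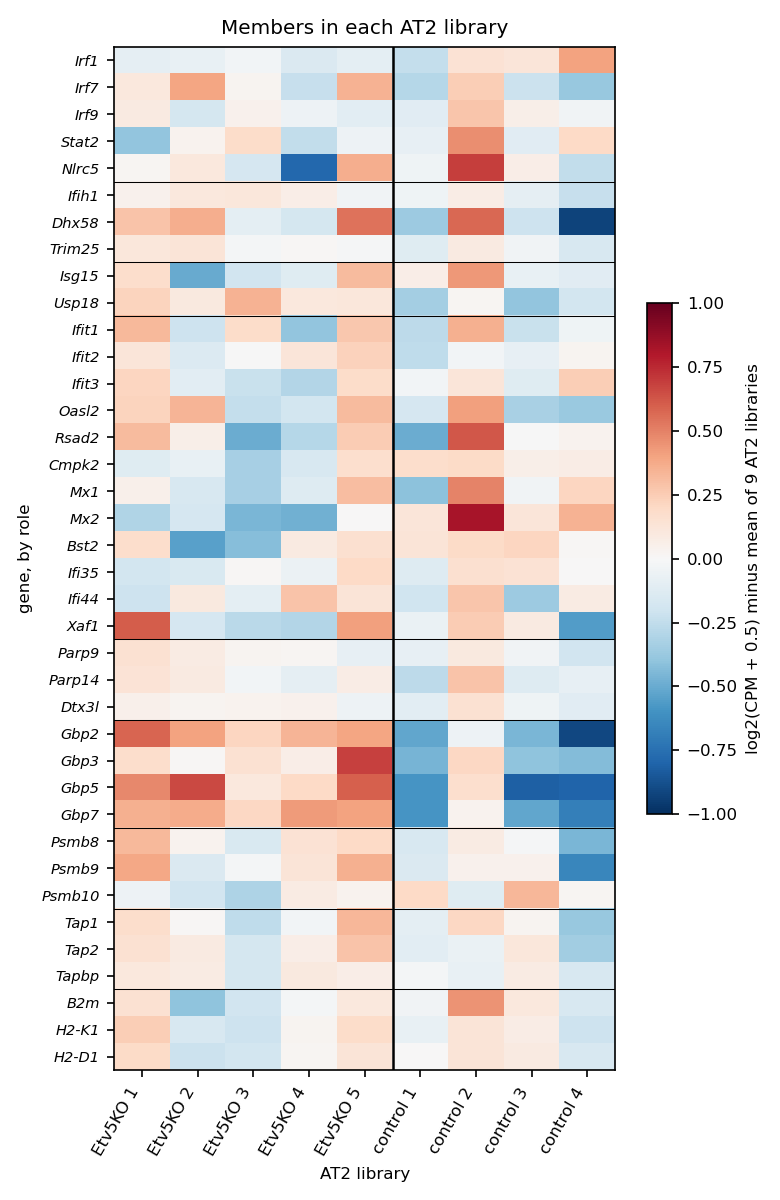
Each member's log2(CPM + 0.5) in each AT2 library minus its mean over the 9 libraries, with the 5 Etv5KO libraries left of the black line and the 4 controls right of it. Red is above and blue below the gene's mean. The Gbp rows are red in Etv5KO and blue in controls 1, 3 and 4, while control 2 is red in most other rows.

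Of the immunoproteasome, whose subunits replace those of the standard proteasome and alter which peptides are cut, 0 of 3 passed in AT2 cells in edgeR or DESeq2, with 0 at an unadjusted p under 0.05. Psmb8 had 55.3, 45.1, 39.7, 48.9 and 50.6 CPM in Etv5KO libraries, against 39.3, 46.7, 43.8 and 32.0 CPM in control libraries. The groups overlapped, and the log2 fold change of Psmb8 was 0.25 (SE 0.12, edgeR adjusted p = 0.263). Psmb9 averaged 22.3 ± 3.64 CPM in Etv5KO and 17.9 ± 3.80 CPM in control cells (log2 0.32, SE 0.16), and Psmb10 averaged 24.1 ± 2.70 CPM in Etv5KO and 27.7 ± 3.84 CPM in control cells (log2 -0.20, SE 0.11).

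Peptide transport and loading also gave 0 of 3 past the threshold by either tool, with 0 at an unadjusted p under 0.05. Tapbp encodes tapasin, which bridges class I molecules to the transporter. It had 271, 267, 223, 269.8 and 265 CPM in Etv5KO AT2 libraries, against 249, 239, 268 and 225 CPM in control AT2 libraries. Etv5KO 3 was low in its group, and the log2 fold change of Tapbp was 0.09 (SE 0.08). Of the transporter subunits, Tap1 averaged 45.9 ± 7.07 CPM in Etv5KO and 42.5 ± 7.13 CPM in control cells, and Tap2 averaged 65.7 ± 7.43 CPM in Etv5KO and 57.8 ± 7.501 CPM in control cells.

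The class I molecules gave 0 of 3 past the threshold by either tool, with 0 at an unadjusted p under 0.05. H2-K1, a heavy chain, had 1107, 835, 809, 954 and 1059 CPM in Etv5KO AT2 libraries, against 888, 1019.8, 985 and 808 CPM in control AT2 libraries. The groups overlapped over nearly all of their range, and the interval of the log2 fold change of H2-K1 was -0.20 to 0.30 around 0.05. H2-D1, the other heavy chain listed, averaged 891 ± 112 CPM in Etv5KO and 904 ± 79.1 CPM in control cells, with an interval of -0.25 to 0.22. B2m, the light chain, averaged 342 ± 52.1 CPM in Etv5KO and 383 ± 72.8 CPM in control cells. Class I heavy chain genes resemble one another, so their unique counts are uncertain.

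In lung tissue, 0 of 38 members passed between Etv5KO and control in edgeR, 0 had an unadjusted p under 0.05, and DESeq2 called 0. Of all 17098 genes tested there, 0.415% passed in either direction (0.205% higher and 0.211% lower), so calls in lung were few for any gene. The log2 fold changes of the members ran from -0.10 for Irf1 to 0.22 for Isg15, with 28 positive and 10 negative values. Their median was 0.07, against -0.01 over all genes. All 38 intervals lay within 1 log2 unit of no change and 34 within 0.5, and the widest belonged to Mx1, from -0.40 to 0.69. Gbp2 had 82.0, 104, 82.8, 97.2 and 111 CPM in Etv5KO lung, against 85.7, 88.9, 87.7, 94.0 and 90.8 CPM in control lung. Gbp7 had 83.2, 91.1, 81.7, 92.1 and 110.0 CPM in Etv5KO lung, against 80.3, 105, 84.5, 84.3 and 110.3 CPM in control lung. No member had groups without overlap in lung, which among all genes held upward for 0.977% and downward for 0.544%. For Gbp2 and Gbp7 the genotypes overlapped, with log2 fold changes of 0.09 (SE 0.08) for Gbp2 and -0.02 (SE 0.11) for Gbp7. Gbp5 averaged 21.5 ± 3.89 CPM in Etv5KO and 21.6 ± 2.50 CPM in control lung, and Gbp3 averaged 52.6 ± 7.73 CPM in Etv5KO and 46.3 ± 5.96 CPM in control lung (SD, n = 5 each). Control 3 was the lowest of the 10 lung libraries for 20 of the 38 members, and the share over all genes was not computed.

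The difference between the genotype effects in AT2 cells and in lung was tested with an interaction term over all 19 libraries. It passed as more positive in AT2 cells for 2 of 38 members, Gbp2 and Gbp7, and as more negative for 1, Mx2, whereas of all 17698 genes tested 1.59% passed in either direction, 0.791% upward and 0.802% downward. For Gbp2 the log2 effect in AT2 cells exceeded that in lung by 0.79 (SE 0.17, edgeR adjusted p = 0.0199), and this held in 19 of 19 fits that left out 1 library. For Gbp7 the excess was 0.83 (SE 0.19, edgeR adjusted p = 0.0253), and it was lost without AT2 control 1, 3 or 4, with edgeR adjusted p up to 0.0660. Gbp5 had the largest excess at 1.32 (SE 0.34) but did not pass (edgeR adjusted p = 0.0590), though DESeq2 called it, and Gbp3 did not pass at 0.39 (SE 0.25, edgeR adjusted p = 0.683). For Mx2 the difference was -1.64 (SE 0.41, edgeR adjusted p = 0.0451). It rested on few AT2 reads, and Mx2 passed the filter on low counts through its lung libraries, not its AT2 libraries. The difference stayed past the threshold in 3 of 19 fits that left out 1 library, with edgeR adjusted p up to 0.136. In lung Mx2 had 3.27, 2.72, 3.35, 3.25 and 3.05 CPM in Etv5KO, against 3.18, 3.81, 2.38, 2.19 and 3.02 CPM in control libraries, and the genotypes overlapped.

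Compared with control lung, control AT2 cells had lower levels of 36 of the 38 members and a higher level of 1, H2-K1. The 36 include Mx1 and Mx2, which entered this fit through their lung counts, so the filter favoured their call as lower. The largest differences were those of Ifit2 (42.3-fold lower), Gbp5 (36.0-fold lower), Ifit1 (34.2-fold lower), Ifi44 (29.4-fold lower) and Ifit3 (23.6-fold lower). Of all 17118 genes tested in this comparison, 38.9% were lower and 35.6% higher in AT2 cells, or 74.5% in either direction. For 36 members every AT2 control lay below every lung control, which held for 35.9% of all genes. Ifit2 had 0.597, 0.779, 0.736 and 0.830 CPM in control AT2 cells, against 31.5, 33.1, 30.3, 31.4 and 30.5 CPM in control lung. Its log2 difference was -5.40 (SE 0.11, edgeR adjusted p = 1.08e-11). Which cell types of the lung carry these genes cannot be told apart in bulk libraries.

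The ranges of the roles overlapped, and no test compared the roles. The 4 Gbp genes had a median log2 difference of -4.33, from -5.17 for Gbp5 to -4.08 for Gbp2. The 12 antiviral effectors had one of -3.75, from -5.40 for Ifit2 to -1.13 for Ifi35. That median includes Mx1 and Mx2, which entered through their lung counts. The ISG15 system stood at -2.22 for Isg15 and -2.73 for Usp18. The signalling and transcription factors ran from -3.04 for Nlrc5 to -0.44 for Irf1, and peptide transport and loading from -1.09 for Tap1 to -0.34 for Tapbp. RNA sensing ran from -2.14 for Dhx58 to -0.66 for Trim25, the ADP-ribosylation group from -1.58 for Parp14 to -0.48 for Parp9, and the immunoproteasome from -1.23 for Psmb10 to -0.76 for Psmb8. With scaling by library sizes alone the median of all genes moved to -0.42, from -0.01, and 37 members were lower and 0 higher.

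With TMM factors, the class I heavy chains were the exception to the low level in AT2 cells. H2-K1 averaged 925 ± 96.3 CPM in control AT2 cells (SD, n = 4) and 736 ± 65.0 CPM in control lung (SD, n = 5), a log2 difference of 0.33 (SE 0.10, edgeR adjusted p = 0.00890), which became -0.07 with scaling by library sizes alone. H2-D1 averaged 904 ± 79.1 CPM in control AT2 cells and 935 ± 74.7 CPM in control lung, with an interval of the log2 difference from -0.25 to 0.15. With library sizes alone the log2 difference of H2-D1 was -0.45 and passed as lower in AT2 cells (edgeR adjusted p = 0.00195). The median of all genes was -0.42 under that scaling. B2m averaged 383 ± 72.8 CPM in control AT2 cells and 1144 ± 120.1 CPM in control lung, 2.99-fold lower in AT2 cells. Per length, on the authors' RPKM, the ratio of B2m to the sum of H2-K1 and H2-D1 was 0.418 ± 0.0227 in Etv5KO AT2 cells and 0.469 ± 0.0525 in control AT2 cells. In lung it was 1.51 ± 0.117 in Etv5KO and 1.52 ± 0.0631 in control libraries (SD, n = 5, 4, 5 and 5). The AT2 and lung ranges of this ratio did not overlap, whereas those of the genotypes did within each tissue.

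**Figure D4:**
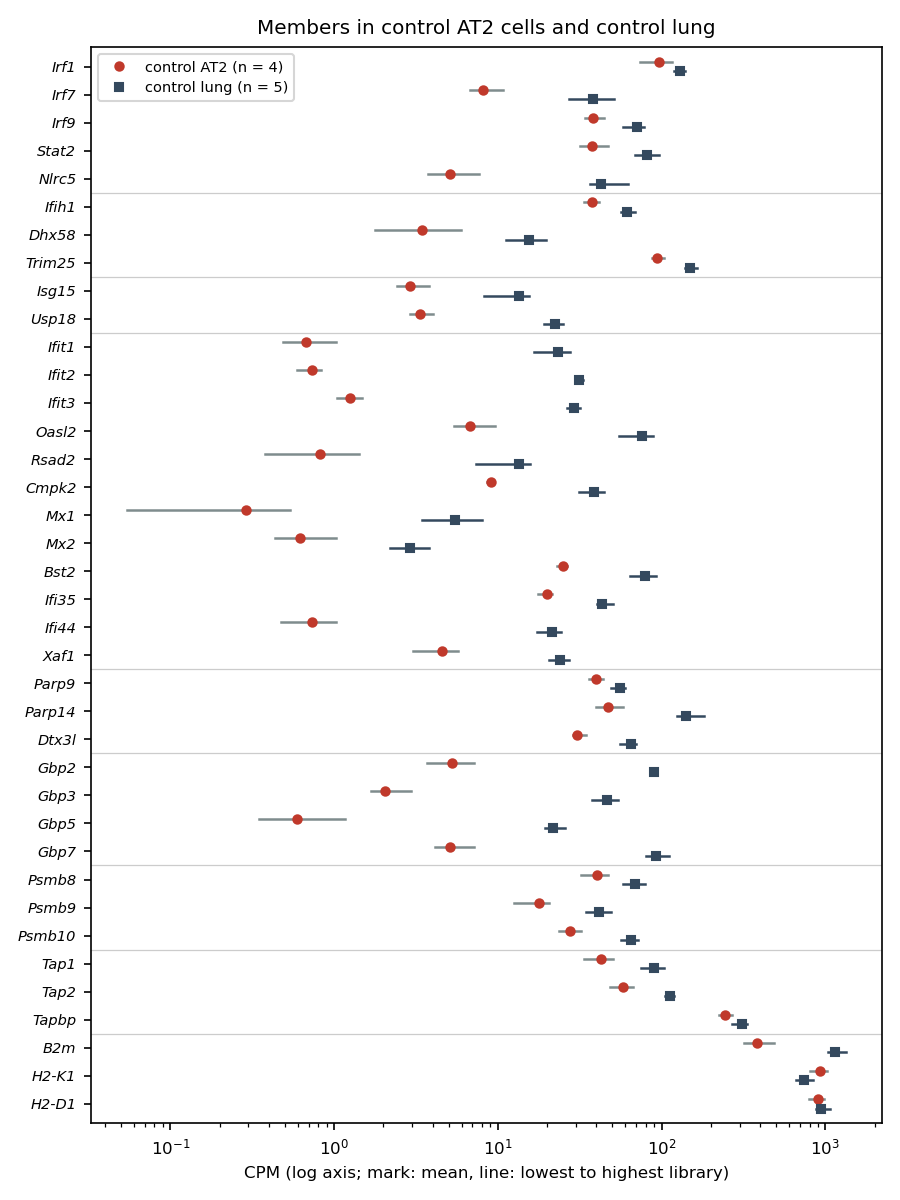
Mean CPM of each member in control AT2 cells (circles, n = 4) and control lung (squares, n = 5) on a log axis, with lines from the lowest to the highest library, grouped by role. Circles lie left of squares for all members except H2-K1, and the 5 widest gaps are those of Ifit2, Gbp5, Ifit1, Ifi44 and Ifit3.

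The immunoproteasome subunits were also set against the standard subunits that they replace, on the authors' RPKM, which is per length. Psmb9 was 18.9% ± 0.980 of Psmb6 in Etv5KO AT2 cells and 15.2% ± 3.70 in control AT2 cells, against 52.2% ± 4.12 in Etv5KO lung and 49.5% ± 6.60 in control lung. Psmb10 was 21.3% ± 2.44 of Psmb7 in Etv5KO AT2 cells and 24.7% ± 2.09 in control AT2 cells, against 80.9% ± 7.72 in Etv5KO lung and 86.4% ± 10.1 in control lung. Psmb8 was 271% ± 50.1 of Psmb5 in Etv5KO AT2 cells and 248% ± 51.8 in control AT2 cells, against 576% ± 97.9 in Etv5KO lung and 532% ± 51.8 in control lung (SD, n = 5, 4, 5 and 5 throughout). For all 3 pairs the ranges of the AT2 and lung libraries stood apart, while the 2 genotypes overlapped within each tissue. Unique alignment may lower the count of a standard subunit that has pseudogenes, so the ratios are comparable between groups but not between pairs.

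**Figure D5:**
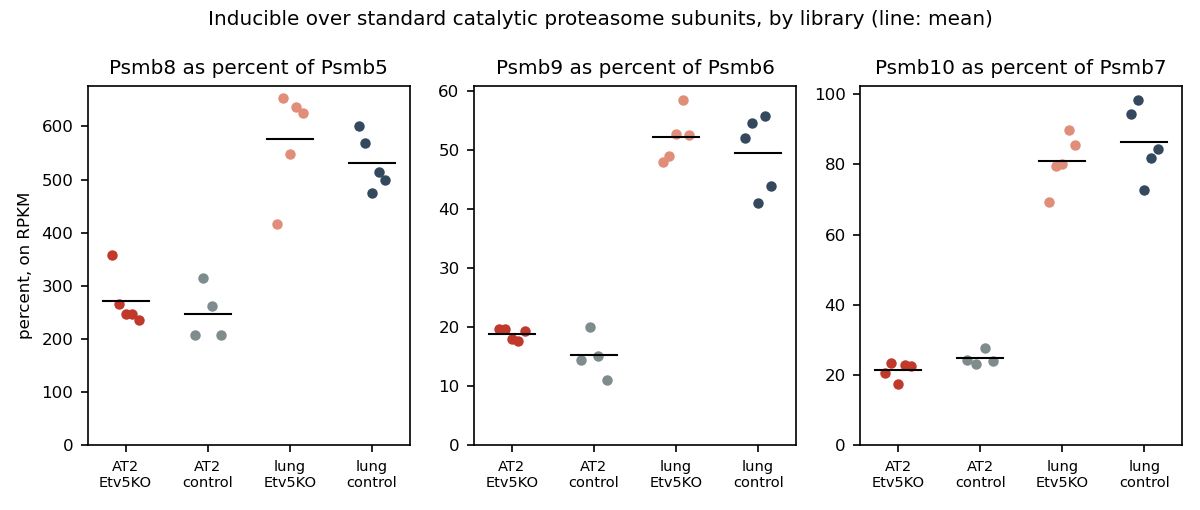
RPKM of each inducible catalytic subunit as a percent of the standard subunit it replaces, by library, with the group mean as a line and axes from 0. Both AT2 groups lie below both lung groups in each panel, and the genotypes overlap.

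Around the members, the genes of the interferons themselves had few or no uniquely aligned reads. Reads shared between similar genes were left out of these counts. Of 16 interferon genes, 10 had no read in any Etv5KO AT2 library and 14 none in any control AT2 library, and the highest count in an AT2 library was 2. In lung the highest counts were those of Ifng, up to 13 reads in Etv5KO and 14 in control libraries. The test covered 0 of the 16 in AT2 cells and 1, Ifng, in lung.

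Of 19 interferon receptors, kinases and regulators, 3 were higher in Etv5KO AT2 cells and 0 lower in edgeR. Over all genes tested there, 5.03% were higher and 4.84% lower. In edgeR 6 of the 19 had an unadjusted p under 0.05, while DESeq2 called 3 higher and 1 lower. Jak2, a kinase that the interferon gamma receptor and many cytokine receptors use, averaged 170.2 ± 10.2 CPM in Etv5KO and 128 ± 14.96 CPM in control AT2 cells, a log2 fold change of 0.41 (SE 0.08, edgeR adjusted p = 0.00871) that held in 9 of 9 fits with a library left out. Ifngr2, a chain of the interferon gamma receptor, averaged 45.4 ± 0.898 CPM in Etv5KO and 35.9 ± 5.68 CPM in control AT2 cells (log2 0.34, SE 0.10, edgeR adjusted p = 0.0484), and it held in 1 of 9. Pias1, a SUMO ligase that restrains cytokine signalling, averaged 116 ± 15.4 CPM in Etv5KO and 89.5 ± 7.60 CPM in control AT2 cells (log2 0.37, SE 0.10, edgeR adjusted p = 0.0355), and it held in 3 of 9.

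The shares of all genes tested in AT2 cells, 5.03% higher and 4.84% lower, also apply to the lists that follow. In nucleic acid sensing, 1 of 17 genes tested was higher in Etv5KO AT2 cells and 0 lower. It was Samhd1, a nucleotide hydrolase that restricts retroviruses, at 126 ± 8.92 CPM in Etv5KO and 83.2 ± 10.5 CPM in control cells (log2 0.60, SE 0.09, edgeR adjusted p = 0.00131), and it held in 9 of 9 fits with a library left out. Of 41 further interferon-stimulated genes tested, 1 was higher, Tor3a, an ATPase of the torsin family, at 53.8 ± 7.82 CPM in Etv5KO and 38.7 ± 2.95 CPM in control cells (log2 0.48, SE 0.10, edgeR adjusted p = 0.0117). Of 9 further interferon-inducible GTPases tested, 1 was higher, Tgtp1, at 3.33 ± 0.786 CPM in Etv5KO and 1.48 ± 0.508 CPM in control cells (log2 1.19, SE 0.26, edgeR adjusted p = 0.0125). Tgtp1 has a near-identical copy, Tgtp2, so its count is uncertain. At an unadjusted p under 0.05 there were 1 of the 17, 4 of the 41 and 2 of the 9. Gbp4, Gbp6 and Gbp9, related GTPases outside the list of members, did not pass, with log2 fold changes of 0.07 for Gbp4, -0.40 for Gbp6 and 0.14 for Gbp9.

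Of 24 other class I presentation genes tested in AT2 cells, 0 passed in edgeR or DESeq2, with 3 at an unadjusted p under 0.05. Of 14 standard proteasome subunits, 0 passed by either tool, with 1 at an unadjusted p under 0.05. In lung, 0 genes passed by either tool in each of these lists, and 0 had an unadjusted p under 0.05. Between control AT2 cells and control lung, 8 of the 14 standard proteasome subunits were higher in AT2 cells and 0 lower, against 35.6% higher and 38.9% lower over all genes, but with scaling by library sizes alone 1 was higher and 5 lower. With TMM factors the other 6 did not pass, and the median log2 difference of the 14 was 0.31, or -0.10 with library sizes alone. Of 56 further interferon-stimulated genes tested in this comparison, 50 were lower and 3 higher. Only 41 genes of this list passed the filter on low counts in the AT2 fit. The rest entered through their lung counts, which favours a call as lower in AT2 cells, so the 50 are partly set by the filter.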

How the data were processed

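Per the file headers, the deposited tables give for each Entrez gene ID a count of uniquely aligned reads and an RPKM value, which the authors scaled by a factor for each library. GSNAP and genome build mm9 are named in the submitters' processing notes. The annotation release and the use of strand in counting are stated in none of the sources used here. Of 36528 IDs, 31049 got their name through RefSeq (assembly GRCm38.p6) and held 98.7% of counts. Since that assembly is not mm9, it served for names, gene order and promoter windows only. No member had counts identical to those of another ID. No replicate pair was a duplicate library (chi-square per degree of freedom 7.81 to 61.8).

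Counts were tested with edgeR 4.0.16 in R 4.3.3: filterByExpr (minimum count 10, minimum total 15), TMM, two-sided quasi-likelihood F tests, Benjamini-Hochberg adjustment over all genes tested, threshold 0.05. AT2 cells, lung, and control AT2 against control lung were fitted separately, and the difference of effects was an interaction over all 19 libraries. Printed CPM are TMM-scaled over the 19 libraries. Standard errors follow from F, and intervals cover 95%. The fits of AT2 cells, of lung and of the difference of effects were checked on simulated counts with 200 changed genes. The fit of control AT2 against control lung was not. The alternatives were RLE factors, the authors' size factors, library sizes alone, no filter on low counts, DESeq2 1.42.0, a shared fit of the 19 libraries, and leaving out each library.

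The members and gene lists were chosen with earlier results of these data known. Values per library are given for members past the threshold in a genotype comparison or the difference of effects, and for the member with the highest mean in AT2 cells of each role. The 5 largest differences are named for control AT2 against control lung. In the pathway lists, genes past the threshold are named, and Gbp4, Gbp6, Gbp9, Cd68 and Marco were named after their values were seen. So were the ETS motif and the promoter of Ifit1. Of the listed pathway genes, Ifi44l and Mnda were not matched, and the values of another are not reported here.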

Additional observations from a re-analysis of the deposited data

Results flagged for a closer look

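Within each group of libraries, the level of each member was checked for a single library far from the others, relative to the range of the group. Of 152 such groups 11 were marked, and chance marks about 1 in 20. In AT2 cells, Gbp3 was high in Etv5KO 5, at 4.33 CPM against 2.89 CPM in the next library, and in control 2, at 2.97 CPM against 1.78 CPM. Tapbp was low in Etv5KO 3, at 223 CPM against 265 CPM, and Dtx3l was low in Etv5KO 5, at 30.0 CPM against 31.6 CPM. In Etv5KO lung, Tap1 was low in library 1, at 78.0 CPM against 100.2 CPM.

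In control lung, library 2 was high for Nlrc5 (62.0 CPM against 38.3 CPM in the next library) and Parp14 (181 CPM against 140.4 CPM). Library 3 was low for Isg15 (8.25 CPM against 14.2 CPM) and Rsad2 (7.34 CPM against 14.1 CPM). Gbp5 was high in library 1 (25.9 CPM against 21.2 CPM) and Ifi35 in library 5 (50.7 CPM against 43.1 CPM).

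The genotype effect differed between AT2 cells and lung for 3 members by edgeR's test of the interaction. The log2 difference was 0.79 for Gbp2, 0.83 for Gbp7 and -1.64 for Mx2. Mx2 entered that fit through its lung counts, having too few AT2 reads for the filter.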

How the results depend on the processing

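Over the other scalings, filter, tool and shared fit, 214 of 216 values of members in AT2 cells, 221 of 228 in lung, 226 of 228 between control AT2 and control lung and 180 of 190 differences of effects kept their sign and side of the threshold. With 1 library left out, 302 of 324, 336 of 380, 341 of 342 and 658 of 722 did. In AT2 cells, 1 member, Mx2, was lower with no filter and in the fit of all 19 libraries, entered through its lung counts. Leaving out 1 library gave 2 to 5 members higher and 0 to 1 lower there, and a log2 fold change of -0.011 to 0.10 for H2-K1. DESeq2 called 1860 genes in AT2 cells, against 1474. In lung, the genes past the threshold numbered 71, with 197 by DESeq2, 122 in the fit of all 19 libraries and 44 to 80 with 1 library left out (47 without control 3, 44 without control 4). The log2 fold changes there ran from -0.10 to 0.072 for Gbp5 and from -0.091 to 0.059 for Gbp7. With library sizes alone, 894 of 1376 called genes were higher in AT2 cells, against 751 of 1474, and 3318 of 12802 in control AT2 against control lung, against 6092 of 12754. That comparison then held 0 members higher, with H2-K1 at -0.073 and H2-D1 at -0.45, the latter past the threshold as lower. With TMM factors H2-D1 ran from -0.076 to 0.031 with 1 library left out. Differences of effects numbered 467 by DESeq2, against 282. Members more negative in AT2 cells numbered 0 with library sizes alone and 0 with no filter. With 1 library left out, 1 to 3 members were more positive and 0 to 1 more negative. The causes were not tested. No paired analysis was possible because the labels give no replicate numbers and do not tie AT2 and lung libraries to the same mouse. The low AT2 counts of the Ifit genes, Rsad2, Ifi44, Mx1 and Mx2 limit what can be said of these genes there.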
